A study of Mus musculus with 10 samples.

Results

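The genes described here are the interleukin and cytokine receptors of fetal long-term hematopoietic stem cells (LT-HSCs). They are the genes of the deposited table whose symbol starts with Il, a number and r, together with 13 genes listed by name (Csf1r, Csf2ra, Csf2rb, Csf3r, Il6st, Lifr, Osmr, Clcf1, Crlf2, Ifnar1, Ifnar2, Ifngr1 and Ifngr2). This rule found 52 of the 17404 genes in the table, and all 52 passed the filter on low counts. Clcf1 encodes a ligand, Il1rn a secreted antagonist and Il22ra2 a secreted binding protein of IL-22, and the other members encode receptor chains. LT-HSCs were sorted from fetal livers of C57BL/6 embryos at E14.5 and their RNA was sequenced in 6 KO and 4 WT libraries. KO embryos were Tnfrsf11aCre/+; Spi1f/f. WT embryos were Tnfrsf11a+/+; Spi1f/f littermates without Cre, so both groups carried the floxed Spi1 gene, which encodes the transcription factor PU.1. Cre is made from the Tnfrsf11a locus, which is active in precursors of macrophages, and the model removes fetal macrophages rather than targeting stem cells. The study compared the groups to ask how LT-HSCs change when macrophages are missing from the fetal liver.

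Cytokine receptors of this kind are built from several chains. A ligand-specific chain pairs with a chain that many receptors share, such as the common gamma chain (Il2rg), the common beta chain (Csf2rb) or gp130 (Il6st), and most of them signal through JAK kinases and STAT factors. Receptors of the IL-1 family and the IL-17 family instead signal through adaptor proteins towards NF-kappaB. Stem cells are known to carry several of these receptors and to respond through them to interferons, IL-1 and IL-3.

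Depth was 5315435 to 30941726 counts in KO and 7633446 to 18256010 in WT libraries and did not differ beyond the spread (p = 0.362 by an exact two-sided permutation test). Genes of stem cells were present, and the sum of 15 LT-HSC genes was 1200 to 2421 CPM (counts scaled to library size) in KO and 679 to 1126 in WT, without overlap. Of the 1200 CPM in KO replicate 15409, Tek, Cd34 and Fgd5, which endothelium also expresses, made up 399, 288 and 174.5 CPM. Hlf was at 13.7 CPM in this library, below the WT range of 17.7 to 32.8 CPM. The part of endothelial RNA in the LT-HSC sum was not tested. A list of 12 endothelial genes summed to 2317 to 9630 CPM in KO and 775 to 6679 in WT libraries, so RNA of endothelial genes was abundant in cells sorted as LT-HSCs. Several libraries stood apart in a list of markers. WT replicate 15416 had the lowest endothelial sum and only 2.73 CPM of Ptprc, the pan-leukocyte antigen CD45, against 23.7 to 50.0 in the other WT libraries, and KO replicate 15409 had the highest endothelial sum and the lowest LT-HSC sum of the KO libraries. WT replicate 15418 had an erythroblast sum of 6498 CPM, against 254 to 1659 in the other WT libraries, a granulocyte sum of 2198 CPM, against 7.58 to 102, and a hepatoblast sum of 6225 CPM, against 271 to 718. Hepatoblast sums were also high in KO replicates 15412 and 15415, at 6972 and 9105 CPM, against 98.2 to 1467 in the other KO libraries. Xist, the RNA of the inactive X chromosome, was at 106 to 149 CPM in the 4 WT libraries, at 361 and 346 in KO replicates 15406 and 15409 and at 1.36 to 2.38 in the other 4 KO libraries, so the KO libraries lay on both sides of the WT libraries in Xist. Fewer cells of a type and less RNA per cell cannot be told apart in bulk samples, and the part of these differences in the results below was not tested.

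The promoter sequences of the members that passed the adjusted threshold are shown here, since the results turn on these genes. RefSeq (GRCm38.p6) gave windows for Il12rb2, Il18rap and Il1rl1. Each is the 250 bases before a start site, 5' to 3' on the strand of the gene. Capitals mark every match, on either strand, to 4 motifs. The core of the PU.1 site was searched as GAGGAA. The site of GATA factors was searched as AGATAA. The site of STAT factors was searched as TTCNNNGAA and that of AP-1 as TGACTCA.
Il12rb2, chr6:67376189-67376438, minus strand: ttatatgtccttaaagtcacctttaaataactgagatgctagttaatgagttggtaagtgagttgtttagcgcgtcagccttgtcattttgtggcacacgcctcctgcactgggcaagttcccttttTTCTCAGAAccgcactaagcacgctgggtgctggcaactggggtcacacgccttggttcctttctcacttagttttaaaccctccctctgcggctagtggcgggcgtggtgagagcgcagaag
Il1rl1 distal start, chr1:40429320-40429569, plus strand: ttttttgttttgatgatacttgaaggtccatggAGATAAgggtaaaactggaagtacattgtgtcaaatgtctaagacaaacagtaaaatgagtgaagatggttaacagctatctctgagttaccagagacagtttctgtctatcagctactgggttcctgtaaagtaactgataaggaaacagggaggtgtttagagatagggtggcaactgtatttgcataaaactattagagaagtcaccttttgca
Il1rl1 proximal start, chr1:40439379-40439628, plus strand: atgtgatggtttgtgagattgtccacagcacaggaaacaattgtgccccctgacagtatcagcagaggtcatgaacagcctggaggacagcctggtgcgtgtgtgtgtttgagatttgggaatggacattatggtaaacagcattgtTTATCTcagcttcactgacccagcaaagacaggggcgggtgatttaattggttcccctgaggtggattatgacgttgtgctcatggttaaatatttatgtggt
Il18rap, chr1:40515112-40515361, plus strand: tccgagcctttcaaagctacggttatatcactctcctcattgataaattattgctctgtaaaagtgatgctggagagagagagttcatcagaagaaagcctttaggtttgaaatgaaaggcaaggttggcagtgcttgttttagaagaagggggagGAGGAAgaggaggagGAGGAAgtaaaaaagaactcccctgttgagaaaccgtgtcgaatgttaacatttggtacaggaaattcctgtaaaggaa
The Il12rb2 window held 1 STAT match, each Il1rl1 window 1 GATA match and the Il18rap window 2 PU.1 core matches, and none of these matches overlapped another. Of 32817 windows of 250 bases before RefSeq start sites, 23.3% held the PU.1 core, 9.99% the GATA motif, 7.01% the STAT motif and 4.46% the AP-1 motif. These matches describe the letters of the windows only. The transcript with most of the Il1rl1 counts, Il1rl1-201, is annotated to start at 40440628, downstream of both Il1rl1 windows.

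Levels were compared between genes in TPM, which is scaled for transcript length. The receptor genes were expressed at low levels in WT LT-HSCs, with a median over genes of 1.49 TPM (mean of the 4 WT libraries) against 4.67 TPM for all genes tested. In WT 28 of the 52 (53.8%) reached 1 TPM, against 68.9% of all genes tested. Il2rg, the common gamma chain, had the highest level in WT (116 ± 74.5 TPM, SD, n = 4). It was followed by Il11ra1, the ligand-binding chain for IL-11, at 65.9 ± 44.2 TPM (SD, n = 4) and by the interferon gamma receptor chain Ifngr1 at 51.0 ± 32.6 TPM (SD, n = 4). Il10rb, a chain shared by IL-10 and type III interferon receptors, had 25.6 ± 7.65 TPM (SD, n = 4), and both chains of the type I interferon receptor lay close to it, with 21.3 ± 6.89 TPM (SD, n = 4) for Ifnar1 and 19.4 ± 3.96 TPM (SD, n = 4) for Ifnar2. Ifngr2, the partner of Ifngr1, had 15.0 ± 8.79 TPM (SD, n = 4), and gp130 (Il6st) had 11.3 ± 6.76 TPM (SD, n = 4). The list of the highest members ended with Il13ra1, which pairs with the IL-4 receptor, at 8.70 ± 6.47 TPM (SD, n = 4) and with Lifr, the LIF receptor, at 6.53 ± 4.88 TPM (SD, n = 4). Each of these genes had a range over the WT libraries that overlapped that of the next gene in this order. In KO the first 3 ranks were again held by Il2rg (164 ± 40.8 TPM, SD, n = 6), Il11ra1 (94.0 ± 26.5 TPM, SD, n = 6) and Ifngr1 (62.6 ± 10.1 TPM, SD, n = 6). At the other end, 9 members were below 0.1 TPM in WT and 4 in KO. Of the 16563 genes tested, 2092 were below 0.1 TPM in WT and 1308 in KO. Among the 9 members, Il12rb2 had a mean of 0.0399 TPM in WT and 2.13 TPM in KO. The median of all genes tested was also higher in KO (7.19 TPM) than in WT, and the groups are therefore compared below in CPM after TMM normalization and not in TPM.

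**Figure D1:**
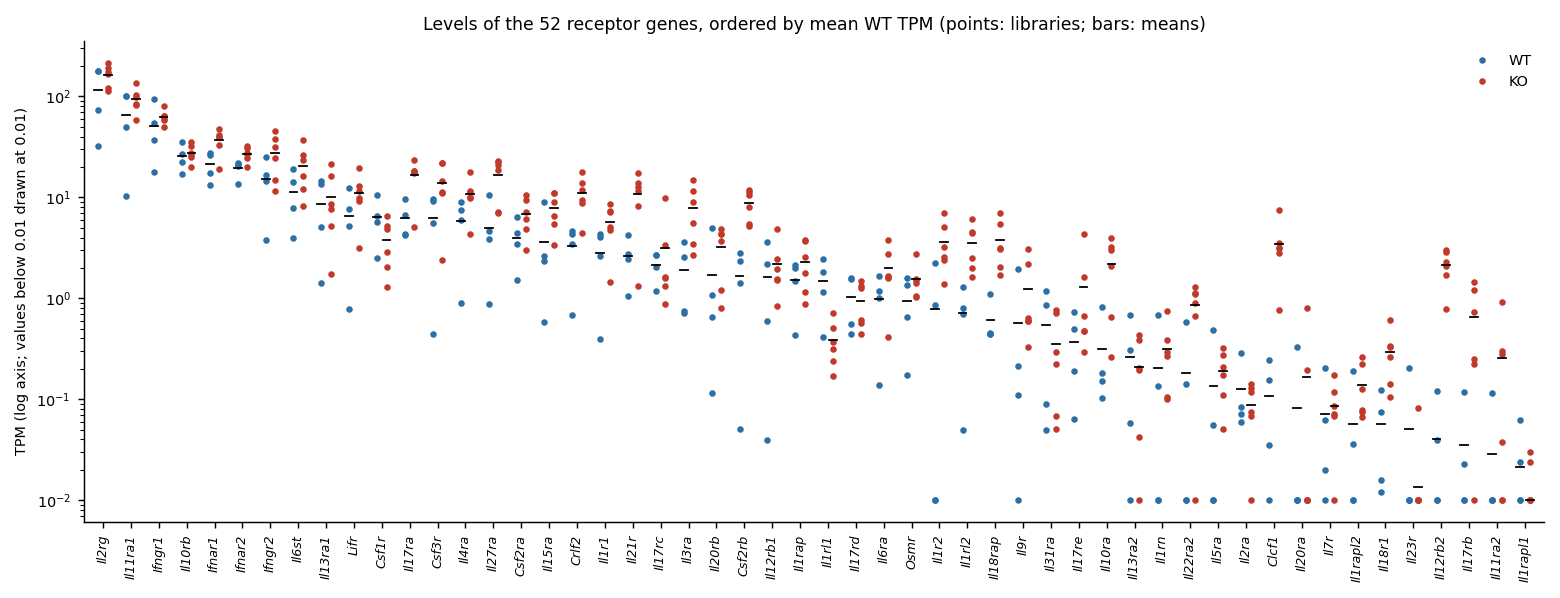
TPM of the 52 genes on a log axis, ordered by the mean of the WT libraries, with 1 point per library (blue, WT, n = 4; red, KO, n = 6) and bars at the means. The order runs from Il2rg at 116 TPM to genes below 0.1 TPM in WT, and WT values spread widely for many genes.

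In the comparison of KO with WT, 3 members were higher in KO, Il12rb2, Clcf1 and Il18rap, and 1 was lower, Il1rl1 (edgeR's quasi-likelihood test, Benjamini-Hochberg adjusted p below 0.1 over all 16725 genes tested). This is 4 of 52 members (7.69%), against 3.99% of all genes tested (1.32% higher and 2.67% lower). With an unadjusted p under 0.05, 13 members (25.0%) were higher and 1 was lower, against 8.6% and 10.2% of all genes. In 5 members the KO and WT libraries did not overlap, 4 higher and 1 lower in KO, against 2.88% and 3.48% of all genes. Positive log2 fold changes were found for 39 of the 52 members and for 53.1% of all genes tested, and the median was 0.49 over the members and 0.06 over all genes tested. The transcripts of the members were longer, with a median over genes of 2239 bases against 1857. After an offset for transcript length the medians of the log2 fold change were 0.27 and -0.08. With this offset 9 members had an unadjusted p below 0.05 and a higher level and 3 a lower one. Of the 16563 genes tested with a length, 907 were higher and 1932 lower at that p. Adjusted p-values of the 4 genes lay between 0.0824 and 0.0999, close to the threshold. With a term for the log2 CPM of Xist, or with any 1 of KO replicates 15405, 15406, 15411, 15412 and 15415 or WT replicate 15416 left out, none of the 4 passed it, while at most 1 gene of the whole table did. In these settings 9 to 12 members still had an unadjusted p below 0.05 and a higher level, and 1 to 3 a lower one. Of all genes tested, 915 to 1312 were higher and 1314 to 1674 lower at that p. Without WT replicate 15418, Il12rb2, Il1rl1 and Il10ra passed, and without WT replicate 15417, Il12rb2, Clcf1 and Il1rl1. The settings of the study (DESeq2, log2 fold-change threshold 0.1) called 6 members higher and 1 lower, against 3.5% and 3.29% of all genes. These were the same 4 genes with Il21r, Csf2rb and Il1rl2.

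**Figure D2:**
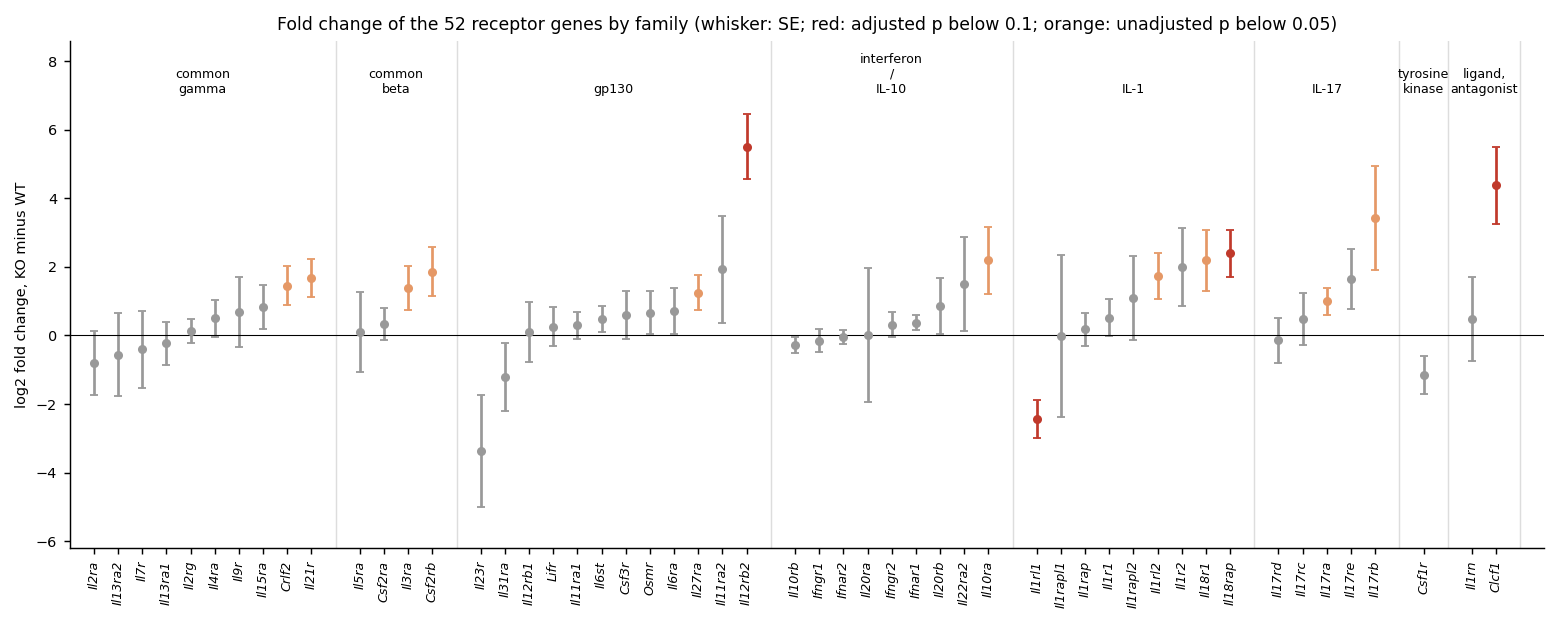
Log2 fold change of each of the 52 genes, KO minus WT, with its standard error, grouped by receptor family (red, adjusted p below 0.1; orange, unadjusted p below 0.05; grey, others). Il12rb2 and Clcf1 lie highest and Il1rl1 is the gene in red below 0, while the interferon receptor chains lie close to 0.

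Il12rb2, the signalling chain of the IL-12 receptor, rose most among the genes that passed the threshold. It lies on chromosome 6 of GRCm38 from 67291318 to 67376188, on the minus strand. Its levels were 5.42, 6.16, 4.12, 7.46, 6.06 and 2.63 CPM in KO replicates 15405, 15406, 15409, 15411, 15412 and 15415, and 0, 0.266, 0.148 and 0 CPM in WT replicates 15416, 15417, 15418 and 15420. All KO libraries were above all WT libraries. The log2 fold change was 5.51 ± 0.95 (SE, adjusted p = 0.0824, edgeR's quasi-likelihood test). Counts summed to 604 in KO and 5 in WT, a ratio of 49.1 after scaling for depth (95% exact interval 20.9 to 152, counting error only). Il12rb2 shares 1519 exonic bases (40.0%) with Serbp1 on the opposite strand, and the counting is not stated to use strand. The transcript Il12rb2-201, with 2179 of its 2998 bases outside Serbp1, held 339 estimated counts in KO and 0 in WT, whereas Il12rb2-202, which shares 58.4% of its length, held 268 and 5.8. The split varied between KO libraries. Replicate 15412 had 13.3 counts on Il12rb2-201 and 183.4 on Il12rb2-202, and replicate 15406 had 19.0 and 20.6. The other KO libraries had more on Il12rb2-201. The part of Serbp1 reads in these counts was not tested. Serbp1 itself was at 406 to 531 CPM in KO and 531 to 1076 CPM in WT libraries, opposite in direction to Il12rb2. Il12rb1, the partner chain that binds the shared subunit of IL-12 and IL-23, had 4.63 ± 4.24 CPM in WT (SD, n = 4) against 4.95 ± 3.01 CPM in KO (SD, n = 6). The partner was at 0.0758 CPM in WT replicate 15416 and at 2.37 to 9.58 CPM in the other WT libraries, and at 1.35 to 10.2 CPM in KO. Il23r, the partner of Il12rb1 in the IL-23 receptor, was almost undetected, with 1 count in 1 KO library and 11 in WT replicate 15418.

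Clcf1, a cytokine of the IL-6 family that acts through gp130 and Lifr, was the other gene past the threshold with hardly any RNA in WT. It lies on chromosome 19 from 4214238 to 4223490. Its levels were 4.51, 14.9, 1.19, 5.23, 7.27 and 8.35 CPM in the KO libraries, in the order given above, and 0, 0.887, 0.370 and 0 CPM in the WT libraries. The groups did not overlap, although KO replicate 15409 lay close to WT. The log2 fold change was 4.38 ± 1.11 (SE, adjusted p = 0.0836, edgeR's quasi-likelihood test), and the depth-scaled ratio of the summed counts, 667 against 15, was 18.1 (95% exact interval 10.9 to 32.5, counting error only). Its coding transcript Clcf1-201 held 76.4% of the estimated counts in KO, and the transcript with a retained intron, Clcf1-203, 23.6%. The receptor chains through which Clcf1 acts did not pass the threshold. Lifr had a median of 62.6 CPM (17.6 to 122) in KO and 7.81, 87.4, 59.8 and 63.8 CPM in WT, a log2 fold change of 0.26 ± 0.57 (SE, adjusted p = 0.85). Il6st had a median of 102 CPM (65.3 to 203) in KO and 32.5, 89.7, 81.4 and 131 CPM in WT, a log2 fold change of 0.47 ± 0.38 (SE, adjusted p = 0.542). Both ranges overlapped widely.

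**Figure D3:**
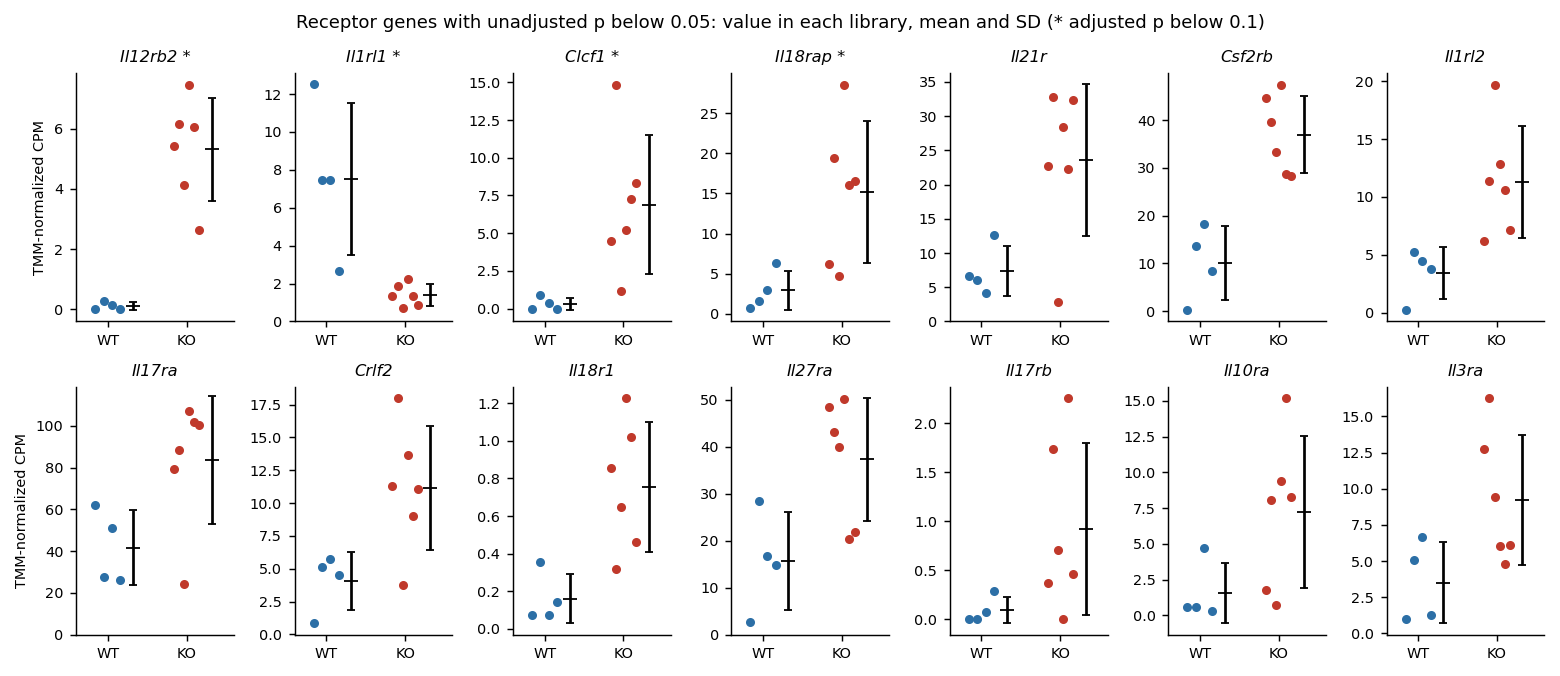
CPM after TMM normalization in each library for the 14 genes with an unadjusted p below 0.05 (blue, WT, n = 4; red, KO, n = 6), with the mean and SD beside the points and a star where the adjusted p is below 0.1. Il12rb2, Il1rl1, Clcf1, Csf2rb and Il1rl2 show no overlap between the groups, and KO replicate 15409 is the low KO point of Il21r and Il17ra.

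Other receptors that signal with gp130 or are built like it mostly had log2 fold changes above 0 without passing the adjusted threshold. Of the 12 members of this family 10 (83.3%) were above 0, against 53.1% of all genes tested. Il12rb2 was the 1 that passed (8.33%, against 3.99% of all genes tested). With KO replicate 15409 and WT replicate 15416 left out, Il6st, Lifr and Il11ra1 were below 0. Il27ra, which pairs with gp130 to bind IL-27, had a median of 41.5 CPM (20.3 to 50.2) in KO and 2.73, 28.4, 16.9 and 14.9 CPM in WT. In KO, 4 of 6 libraries were above all WT libraries, and the log2 fold change was 1.25 ± 0.51 (SE, adjusted p = 0.211). Il11ra1 had a median of 111 CPM (89.7 to 144) in KO and 19.1, 123, 115 and 111 CPM in WT, so that WT replicate 15416 alone lay below the KO range and the log2 fold change of 0.30 ± 0.39 (SE, adjusted p = 0.739) turned to -0.04 without it. Csf3r, the receptor of the granulocyte growth factor G-CSF, had a median of 34.1 CPM (5.85 to 53.9) in KO and 1.52, 28.3, 26.2 and 36.8 CPM in WT (log2 fold change 0.59 ± 0.70 SE, adjusted p = 0.702). Its lowest values were in KO replicate 15409 and WT replicate 15416. Osmr, the oncostatin M receptor, was low in both groups, with a median of 6.65 CPM (2.37 to 10.7) in KO and 8.87, 3.19, 4.81 and 0.708 CPM in WT (log2 fold change 0.66 ± 0.63 SE, adjusted p = 0.615).

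The IL-1 receptor family held members that changed in opposite directions. Il1rl1 encodes ST2, the receptor of IL-33, and was the only member below the adjusted threshold with a lower level in KO. It lies on chromosome 1 from 40429570 to 40465415. Its levels were 1.34, 1.90, 0.704, 2.23, 1.33 and 0.855 CPM in the KO libraries and 12.5, 7.45, 7.47 and 2.69 CPM in the WT libraries. All KO libraries were below all WT libraries (log2 fold change -2.44 ± 0.57 SE, adjusted p = 0.0824, edgeR's quasi-likelihood test). WT replicate 15416 held the highest value, and with it and KO replicate 15409 left out the log2 fold change was -1.94 and the adjusted p 0.149. In TPM the ranges of the groups overlapped. Transcript estimates placed 142 of the KO counts and 269 of the WT counts on Il1rl1-201, which codes for the membrane-bound form. Il1rl1-203, a shorter transcript with 1011 coding bases against 1701, held 3.1 counts in KO and 80.5 in WT, or 1.98% and 21.7% of the gene. The counts were too low to set these shares against each other with confidence. Il1rap, the accessory chain used by IL-1 and IL-33 receptors alike, had 5.74 ± 2.54 CPM in WT (SD, n = 4) against 6.55 ± 2.32 CPM in KO (SD, n = 6).

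Il18rap, the accessory chain of the IL-18 receptor, was higher in KO. Its levels were 6.15, 19.4, 4.66, 28.6, 16.02 and 16.5 CPM in the KO libraries and 0.758, 1.597, 2.96 and 6.37 CPM in the WT libraries. In KO, 4 of 6 libraries were above all WT libraries, while replicates 15405 and 15409 lay below WT replicate 15420. The log2 fold change was 2.40 ± 0.68 (SE) and the adjusted p, 0.0999, was just below the threshold (edgeR's quasi-likelihood test). Il18r1, the chain of the same receptor that binds IL-18, had a log2 fold change of 2.19 ± 0.89 (SE, adjusted p = 0.21), but at very low levels. It had a median of 0.752 CPM (0.316 to 1.23) in KO and 0.0758, 0.355, 0.0739 and 0.142 CPM in WT, from 1 to 33 counts per library. Il1rl2, the receptor of IL-36, did not overlap between the groups, with a median of 10.99 CPM (6.22 to 19.7) in KO and 0.228, 5.24, 4.44 and 3.82 CPM in WT (log2 fold change 1.72 ± 0.67 SE, adjusted p = 0.195).

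These genes lie side by side. Il1r2, Il1r1, Il1rl2, Il1rl1, Il18r1 and Il18rap follow each other on the plus strand of chromosome 1 within 478 kb, from 40074079 to 40551705. Il1rl1 ends 0.136 kb before the annotated start of Il18r1, and its fold change was opposite in sign to those of all 5 neighbours. Il1r1, the signalling receptor of IL-1, had a median of 26.8 CPM (8.09 to 34.0) in KO and 2.28, 21.5, 20.2 and 23.9 CPM in WT (log2 fold change 0.51 ± 0.54 SE, adjusted p = 0.661). Il1r2, the decoy receptor of IL-1, had a median of 2.77 CPM (1.32 to 6.96) in KO and 0, 2.31, 1.41 and 0 CPM in WT (log2 fold change 2.00 ± 1.13 SE, adjusted p = 0.367). Il1r1 and Il1r2 are named for their place in the cluster and were chosen after their values were seen. On chromosome 16, Ifnar2, Il10rb, Ifnar1 and Ifngr2 share 193 kb, from 91372783 to 91565623, and none of the 4 passed the threshold.

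**Figure D4:**
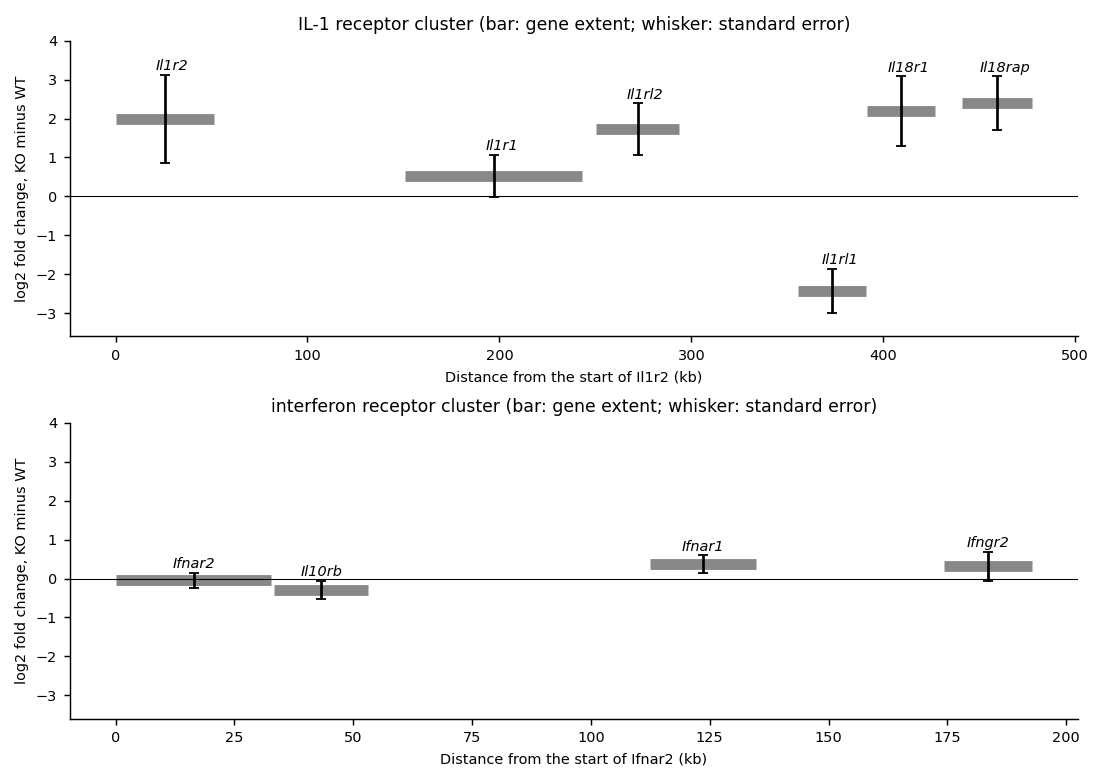
Log2 fold change, KO minus WT, of the genes of the IL-1 receptor cluster (above) and the interferon receptor cluster (below) against distance in kb from the start of the first gene, with bars over the extent of each gene and whiskers for the standard error. Il1rl1 lies at -2.44 between neighbours at 1.72 and 2.19, and the interferon receptor genes lie between -0.29 and 0.37.

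Receptors of the common beta chain were all above 0 in KO, 4 of 4, against 53.1% of all genes tested. None passed the adjusted threshold. Csf2rb, the chain shared by the receptors of IL-3, IL-5 and GM-CSF, showed no overlap between the groups, with a median of 36.4 CPM (28.4 to 47.5) in KO and 0.228, 13.8, 18.2 and 8.35 CPM in WT. The log2 fold change was 1.87 ± 0.70 (SE, adjusted p = 0.186, edgeR's quasi-likelihood test). Of its 4 WT values the lowest was again that of WT replicate 15416, and with it and KO replicate 15409 left out the log2 fold change was 1.48 with an adjusted p of 0.0608. Csf2rb2, a near-copy of Csf2rb specific to IL-3 in mice, had a log2 fold change of 0.92 ± 0.74 (SE, adjusted p = 0.546), and reads of such copies may be divided uncertainly between them. Il3ra, the IL-3 binding chain, had a median of 7.77 CPM (4.79 to 16.3) in KO and 0.986, 5.06, 6.66 and 1.27 CPM in WT (log2 fold change 1.39 ± 0.63 SE, adjusted p = 0.258). Csf2ra, the GM-CSF binding chain, had a median of 12.1 CPM (4.603 to 15.0) in KO and 3.19, 11.98, 13.2 and 7.50 CPM in WT (log2 fold change 0.33 ± 0.47 SE, adjusted p = 0.76). Il3ra and Csf2ra overlapped between the groups. Il5ra, which marks eosinophil lineage cells, stayed at or below 1.70 CPM in all libraries.

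The family grouped here with the common gamma chain had 6 of 10 members above 0 (60.0%), against 53.1% of all genes tested. None passed the adjusted threshold. The family holds Crlf2, Il13ra1 and Il13ra2, which do not pair with Il2rg. Il2rg itself was at similar levels, with a median of 220 CPM (192 to 289) in KO and 59.0, 277, 182 and 315 CPM in WT (log2 fold change 0.13 ± 0.35 SE, adjusted p = 0.88). Il2rg shares 30.5% of its exonic bases with Gm20489 on the same strand. Il21r, which pairs with Il2rg to bind IL-21, had a median of 25.6 CPM (2.82 to 32.7) in KO and 6.60, 6.12, 4.22 and 12.6 CPM in WT. In KO, 5 of 6 libraries were above all WT libraries and replicate 15409 was below them all. The log2 fold change was 1.68 ± 0.57 (SE, adjusted p = 0.148), and without KO replicate 15409 it was 1.91 with an adjusted p of 0.0496 (edgeR's quasi-likelihood test). Crlf2, the TSLP receptor, had a median of 11.2 CPM (3.79 to 18.0) in KO and 0.834, 5.15, 5.77 and 4.53 CPM in WT (log2 fold change 1.45 ± 0.57 SE, adjusted p = 0.199). Its partner Il7r was at or below 1.11 CPM in every library. Il13ra1 spread widely within both groups, with a median of 24.8 CPM (7.36 to 67.8) in KO and 6.22, 55.8, 30.98 and 61.7 CPM in WT (log2 fold change -0.23 ± 0.63 SE, adjusted p = 0.88).

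None of the interferon and IL-10 receptor family passed the adjusted threshold. Of its 9 members, which include the secreted Il22ra2, 6 (66.7%) were above 0, against 53.1% of all genes tested. Ifnar2 had a median of 41.4 CPM (38.5 to 57.6) in KO and 54.0, 42.4, 39.7 and 44.7 CPM in WT (log2 fold change -0.04 ± 0.19 SE, adjusted p = 0.929). Ifnar1 had a median of 118 CPM (75.1 to 148) in KO and 57.7, 95.7, 106 and 96.2 CPM in WT (log2 fold change 0.37 ± 0.23 SE, adjusted p = 0.4). Both are chains of the receptor of type I interferons, which are known to drive adult stem cells into cycle. Ifngr1 had a median of 119 CPM (86.3 to 136) in KO and 231, 115, 124 and 45.2 CPM in WT (log2 fold change -0.15 ± 0.34 SE, adjusted p = 0.857). Ifngr2 had a median of 55.4 CPM (31.4 to 78.2) in KO and 13.95, 63.3, 59.5 and 42.6 CPM in WT (log2 fold change 0.32 ± 0.38 SE, adjusted p = 0.702). Il10rb had a median of 40.9 CPM (36.0 to 63.7) in KO and 75.7, 41.3, 46.6 and 60.0 CPM in WT (log2 fold change -0.29 ± 0.24 SE, adjusted p = 0.553). For all 5 the ranges overlapped, and the signs of Ifnar2, Ifngr1 and Ifngr2 turned when KO replicate 15409 and WT replicate 15416 were left out. Il10ra, the IL-10 binding chain, differed from its partner Il10rb in that it was low and uneven. It had a median of 8.17 CPM (0.758 to 15.2) in KO and 0.607, 0.621, 4.73 and 0.283 CPM in WT (log2 fold change 2.19 ± 0.97 SE, adjusted p = 0.246), and 4 of 6 KO libraries were above all WT libraries. Without WT replicate 15418, which held the highest WT value, its log2 fold change was 3.85 and its adjusted p 0.0962, past the threshold (edgeR's quasi-likelihood test).

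Of the IL-17 receptors, Il17ra, the chain shared within the family, had a median of 94.4 CPM (24.4 to 107) in KO and 62.1, 27.6, 51.2 and 26.0 CPM in WT. KO replicate 15409 was the lowest of all libraries and the other 5 KO libraries were above all WT libraries. The log2 fold change was 0.999 ± 0.391 (SE, adjusted p = 0.196) and was 1.19 with an adjusted p of 0.0606 without KO replicate 15409 (edgeR's quasi-likelihood test). In both groups most of its estimated counts, 73.9% in KO and 73.7% in WT, lay on the transcript Il17ra-203, which retains an intron and has no coding sequence, and 25.9% and 25.8% on the coding Il17ra-201. Il17rb, the IL-25 binding chain, was near the detection limit, with a median of 0.582 CPM (0 to 2.26) in KO and 0, 0, 0.0739 and 0.283 CPM in WT (log2 fold change 3.43 ± 1.51 SE, adjusted p = 0.244).

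Csf1r, the tyrosine kinase receptor of CSF-1 and a marker of macrophages, was the member closest to the cells that the model removes. Its levels were 7.92, 18.0, 5.25, 11.4, 27.3 and 34.5 CPM in the KO libraries and 13.9, 31.3, 76.2 and 32.7 CPM in the WT libraries. In KO, 3 of 6 libraries were below all WT libraries (log2 fold change -1.15 ± 0.55 SE, adjusted p = 0.282, edgeR's quasi-likelihood test), and Csf1r did not pass the threshold. Without WT replicate 15418, the highest of all libraries, the log2 fold change was -0.53 with an adjusted p of 0.61. It shares 15.1% of its exonic bases with Hmgxb3 on the opposite strand. Of the 16 macrophage markers, which hold Csf1r itself, 1 (6.25%) was lower and none was higher at an adjusted p below 0.1. The shares of all genes tested were 2.67% and 1.32%. The sum of the markers was 465.6 to 989 CPM in KO and 147 to 946 in WT. Against 46.9% of all genes tested, 12 of the 16 had a log2 fold change below 0, with a median of -0.77. Among them were the complement gene C1qa at -2.04 and Adgre1, which encodes F4/80, at -2.08, neither past the threshold. Both were highest in WT replicate 15418, at 18.0 and 40.7 CPM. The other WT libraries, at 0.91 to 4.70 CPM of C1qa and 0.1415 to 3.02 of Adgre1, lay within the KO ranges of 0.158 to 6.865 and 0.0609 to 11.8. The markers above 0 were Cd68, Lyz2, Mrc1 and Vcam1. Mrc1, which liver endothelium also expresses, made up 3.11 to 489 CPM of the sum in WT and 65.4 to 715 CPM in KO. The marker that passed was Marco, a scavenger receptor, at 0 in all 6 KO libraries and 3.41 to 14.3 CPM in WT. Timd4, a marker of resident liver macrophages, was at most 1.59 CPM in any library. The part of macrophage RNA in the level of Csf1r was not tested.

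The other 22 members (Il11ra2, Il12rb1, Il13ra2, Il15ra, Il17rc, Il17rd, Il17re, Il1rap, Il1rapl1, Il1rapl2, Il1rn, Il20ra, Il20rb, Il22ra2, Il23r, Il2ra, Il31ra, Il4ra, Il5ra, Il6ra, Il7r and Il9r) overlapped between the groups. Their log2 fold changes ran from -3.38 (Il23r) to 1.93 (Il11ra2), with adjusted p-values of 0.289 and above in edgeR's quasi-likelihood test, and 10 of them had a mean below 1 CPM in both groups. The 52 genes summed to 1140 to 1488 CPM in KO, 1187 to 1271 in 3 of the WT libraries and 715 in WT replicate 15416.

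**Figure D5:**
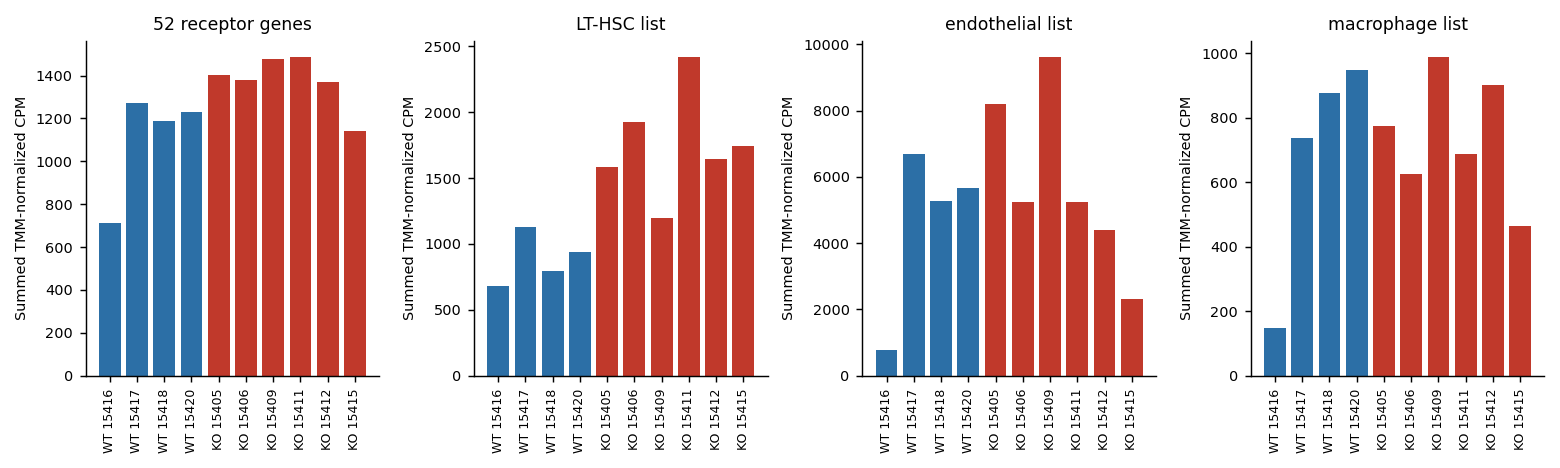
Summed CPM per library of the 52 receptor genes, 15 LT-HSC genes, 12 endothelial genes and 16 macrophage genes (blue, WT; red, KO; bars start at 0). The receptor sum was 715 CPM in WT replicate 15416, which also has the lowest endothelial and macrophage sums, while the LT-HSC sum was higher in each KO library than in any WT library. In the LT-HSC sum of KO replicate 15409, Tek, Cd34 and Fgd5, which endothelium also expresses, made up 399, 288 and 174.5 CPM.

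Of the 15 LT-HSC genes, 4 (26.7%) were higher and none lower in KO at an adjusted p below 0.1. The shares of all genes tested were 1.32% and 2.67%. Among the 4 were Hlf and Mecom, which encode transcription factors of stem cells. The median log2 fold change over the 15 was 1.27, and the 2 below 0 were Ly6a (-0.88) and Cd48 (-0.60). Log2 fold changes were also above 0 for 10 of 10 megakaryocyte markers (median 1.07), 10 of 10 hepatoblast markers (median 0.77) and 10 of 12 endothelial markers (median 0.32), of which none passed the adjusted threshold and 2, 0 and 0 had an unadjusted p below 0.05 in edgeR's quasi-likelihood test. Of all genes tested, 53.1% were above 0 and 8.6% were higher at that unadjusted p. The part of the LT-HSC, megakaryocyte, hepatoblast and endothelial genes in the levels of the receptors was not tested. The 2 KO libraries with Xist at least as high as in WT were 15406 and 15409. For Il12rb2, Clcf1 and Il1rl1 all KO libraries lay on 1 side of all WT libraries, so these 2 could not show otherwise. Il18rap (19.4 and 4.66 CPM) was above all WT libraries in 1 of the 2. With Xist as a covariate the log2 fold changes of Il12rb2, Clcf1, Il18rap and Il1rl1 were 5.51, 4.52, 2.21 and -2.50, and none of them passed the adjusted threshold.

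Beyond the receptors of the rule, 14 other cytokine receptors had 1 gene lower and none higher at an adjusted p below 0.1, with a median log2 fold change of 0.70. This is 7.14%, against 3.99% of all genes tested (1.32% higher and 2.67% lower). The lower gene was Epor, the erythropoietin receptor, at 124 ± 46.9 CPM in WT (SD, n = 4) against 62.0 ± 16.3 CPM in KO (SD, n = 6) (log2 fold change -0.999 ± 0.276 SE, adjusted p = 0.0938, edgeR's quasi-likelihood test). Of the 7 erythroblast markers tested, which hold Epor itself, all 7 had a log2 fold change below 0. Their median was -1.22, and 46.9% of all genes tested were below 0. Epor was highest in WT replicates 15416 and 15418, at 160.5 and 163 CPM, which also had the highest erythroblast sums in WT, 1659 and 6498 CPM, and the part of erythroblast RNA in its level was not tested. Kit, the receptor of stem cell factor, had 121 ± 45.6 CPM in WT (SD, n = 4) against 252 ± 100.3 CPM in KO (SD, n = 6), with an adjusted p of 0.139, and Flt3 6.22 ± 2.49 CPM in WT (SD, n = 4) against 17.8 ± 10.1 CPM in KO (SD, n = 6), with an adjusted p of 0.179 (edgeR's quasi-likelihood test). Downstream of the JAK-coupled receptors, 2 of 25 genes were higher and none was lower at an adjusted p below 0.1. This list holds JAK, STAT, SOCS and PIAS genes together with Ptpn6 and Ptpn11. The share called was 8.0%, against 3.99% of all genes tested, and the median log2 fold change was 0.27. Stat3, the main STAT factor of gp130 receptors, was at 119 ± 22.8 CPM in WT (SD, n = 4) against 196 ± 29.9 CPM in KO (SD, n = 6) (log2 fold change 0.72 ± 0.19 SE, adjusted p = 0.0836, edgeR's quasi-likelihood test). Socs3, an inhibitor of gp130 signalling that STAT3 induces, was at 22.6, 29.9, 24.7, 74.8, 34.7 and 34.2 CPM in the KO libraries and 0.379, 8.78, 8.87 and 8.49 CPM in the WT libraries. All KO libraries were above all WT libraries for Socs3 (log2 fold change 2.48 ± 0.66 SE, adjusted p = 0.0906, edgeR's quasi-likelihood test). Of 11 genes that carry the IL-1 receptor signal none passed the threshold in edgeR's quasi-likelihood test or an unadjusted p below 0.05, and the median log2 fold change was 0.02. Of 26 cytokine ligand genes tested none passed the adjusted threshold. At an unadjusted p below 0.05 in edgeR's quasi-likelihood test 3 were higher, namely Il16, Osm and Il5, or 11.5% against 8.6% of all genes tested. Il5 was near the detection limit, at 0 CPM in all WT libraries and at most 0.99 CPM in KO. Osm, the ligand of Osmr, had 0.422 ± 0.629 CPM in WT (SD, n = 4) against 3.01 ± 2.33 CPM in KO (SD, n = 6) (adjusted p = 0.234, edgeR's quasi-likelihood test).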

How the data were processed

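RNA of LT-HSCs from 6 KO and 4 WT fetal livers was made into SmartSeq2 libraries by the authors, sequenced as single-end reads and quantified with Kallisto 0.44.0 on Gencode vM16 (GRCm38). The authors deposited a table of transcripts per library, with estimated counts and TPM, and 1 table of whole-number gene counts, in which the estimated counts were summed by gene symbol without normalization. Sums made here were within 1 count of the deposited gene counts for 97.5% of values. TPM values were summed by symbol for levels between genes.

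Gene counts were tested here with edgeR 4.0.16 (glmQLFit, robust, and glmQLFTest) in R 4.3.3 after TMM normalization, for genes with at least 11 counts in total, with Benjamini-Hochberg adjustment over all genes and a threshold of 0.1, that of the study. The study's own test, DESeq2 (1.42.0 here), was an alternative. The code was tested on simulated data. Standard errors were derived from the F statistic. Gene positions and transcript lengths came from Gencode vM21 (GRCm38) and upstream sequences from RefSeq. No litter, sex or batch is given in the labels, and 1 embryo stands behind each library according to the study, so p-values measure the spread between these libraries. Reads carry no molecular identifiers, and intervals cover counting error only. Members with an adjusted p below 0.1 or an unadjusted p below 0.05, the 10 members with the highest WT TPM and the 13 listed by name are given with values, and the others by counts and ranges, apart from partner chains and neighbours named where they occur. The members, the gene lists and the rule were chosen with earlier results of these data known. The alternatives were DESeq2 with and without its threshold, its size factors, other count filters, Xist or transcript length as a term, transcript sums, an adjusted p below 0.05 and each library left out.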

Additional observations from a re-analysis of the deposited data

Results flagged for a closer look

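A library lay far from the others of its group, by the gap between it and its nearest neighbour relative to the range of the group, in 5 of 60 groups of values checked over 30 receptor genes. Chance alone gives such a gap in about 1 of 20 groups. Il21r at 2.82 CPM and Il17ra at 24.4 CPM were the lowest of the 6 KO libraries in KO replicate 15409, where the next KO libraries had 22.2 and 79.2 CPM. Il11ra1 at 19.1 CPM was the lowest of the 4 WT libraries in WT replicate 15416, with 111 CPM in the next. Il10ra at 4.73 CPM was the highest of the 4 WT libraries in WT replicate 15418, with 0.621 CPM in the next. Ifnar2 at 57.6 CPM was the highest of the 6 KO libraries in KO replicate 15412, with 45.2 CPM in the next.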

How the results depend on the processing

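No paired analysis was possible because the groups share no replicate numbers. Against 667 genes and 4 receptor genes that passed the adjusted threshold with edgeR, the numbers were 1136 and 7 with DESeq2 and its fold-change threshold, 2143 and 11 with DESeq2 without it, 186 and 2 with an offset for transcript length, and 0 and 0 with Xist as a covariate (10 receptor genes higher and 3 lower, and 915 and 1549 of all genes, at an unadjusted p below 0.05) or at an adjusted p below 0.05. With each library left out in turn they ranged from 0 to 998 genes and from 0 to 6 receptor genes. Receptor genes fell to 0 without KO replicate 15405, 15406, 15411, 15412 or 15415 or WT replicate 15416, where 9 to 12 were still higher at an unadjusted p below 0.05. Of all genes tested, 1077 to 1312 were higher at that p in the same fits. After KO replicate 15409 and WT replicate 15416 were both left out, an alternative chosen after seeing the data, 549 genes and 6 receptor genes passed, all 6 higher in KO (Clcf1, Csf2rb, Il12rb2, Il17ra, Il18rap and Il21r). The log2 fold changes of Il12rb2 (5.09 to 6.38), Clcf1 (3.95 to 5.58), Il18rap (2.08 to 3.10) and Il1rl1 (-2.78 to -1.94) kept their direction in all 20 alternatives, with adjusted p up to 0.251, 0.251, 0.255 and 0.251. The 5 receptor genes whose groups did not overlap in CPM were also 5 with DESeq2's size factors and 5 in TPM, where Il1rl1 was replaced by Il18rap. Among the 30 named genes, direction turned for Ifnar2, Ifngr1, Ifngr2, Il11ra1, Il13ra1, Il2rg, Il6st and Lifr. Without KO replicate 15409 and WT replicate 15416, the log2 fold change was 0.085 for Ifnar2, 0.37 for Ifngr1, -0.10 for Ifngr2, -0.13 for Il11ra1, -0.26 for Il2rg, -0.028 for Il6st and -0.37 for Lifr. It was 0.12 for Ifnar2 with transcript sums, 0.015 for Ifngr1 and -0.025 for Lifr with a length offset and 0.11 for Il13ra1 with Xist as a covariate. Over the libraries left out in turn the log2 fold change ranged from -0.1 to 0.053 for Ifnar2, -0.429 to 0.296 for Ifngr1, -0.044 to 0.469 for Il11ra1, -0.589 to 0.085 for Il13ra1, -0.18 to 0.399 for Il2rg and -0.101 to 0.584 for Lifr, and for all 6 genes 1 end of this range came without WT replicate 15416. The cause of these shifts was not tested. Members below 1 TPM rest on few counts.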
